A study of Mus musculus with 6 samples.

Results

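The 53 genes described here encode the kinases, motor proteins and chromosome-attachment proteins that carry a cell through mitosis. They were chosen by name, for what their proteins do, from a count table of 49671 mouse gene identifiers. All 53 had enough reads to be tested, with 406 to 52964 reads per gene and library. They fall into 8 role groups. These are CDK1 with its cyclins and CDC25 phosphatases (6 genes), the Polo and Aurora kinases with their partners (8), spindle checkpoint and kinetochore genes (12), kinesins (10), cytokinesis genes (4), condensin and chromosome structure genes (7), anaphase and mitotic exit genes (5) and the transcription factor gene Foxm1 (1).

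RNA came from LSK cells, a bone marrow fraction that lacks lineage markers, carries Sca-1 and Kit and contains blood stem cells and multipotent progenitors. Bone marrow of BALB/c mice, enriched for these early cells, received a retrovirus carrying either a hairpin RNA against Cxxc5 (shCxxc5, 3 libraries) or one with no mouse target (shCtrl, 3 libraries), and the LSK cells with GFP signal were sorted from pools of several animals. Both groups thus carried the virus and a hairpin, and each has a single hairpin label. The sources used here give neither age nor sex of the mice. Replicates are numbered 2, 3 and 4 in both groups, and no label calls the numbers independent infections, so the p-values cover the spread among these libraries alone, part of which may be technical.

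As background, entry into mitosis is driven by the kinase CDK1 bound to cyclin A or cyclin B and freed from inhibition by CDC25 phosphatases. Polo and Aurora kinases then build the spindle, kinetochores tie chromosomes to its microtubules, kinesins move along those microtubules, and the spindle checkpoint holds the cell until every chromosome is attached. CDC20 with the anaphase-promoting complex ends the arrest, separase cuts the chromatids apart, and the cell divides. Most of these genes are transcribed late in the cell cycle, so in a bulk sample their RNA depends on the share of cells in G2 and mitosis as well as on the RNA per cell, and these data cannot tell fewer cells from less RNA per cell.

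Promoters of such genes are known for a cell cycle homology region (CHR), bound by the DREAM complex and, later in the cycle, by B-MYB and FOXM1 complexes, and for CCAAT boxes, bound by NF-Y. RefSeq windows on GRCm38.p6, from 250 bases before to 50 bases after each annotated start site, were found by symbol for 44 of the 53 genes. They were searched on both strands for the CHR forms TTTGAA and TTCGAA and for CCAAT. A CHR match and a CCAAT match can share a base, as 1 of each does in the window of Cdca8. A CHR match lay in the windows of 35 of the 44 genes (79.5%), a CCAAT match in 32 (72.7%) and both in 30 (68.2%). Among 10267 matched genes tested over all 6 libraries the shares were 16.6%, 42.8% and 6.94%, and among all 27025 genes with a window they were 21.7%, 41.1% and 8.61%. Some genes have more than 1 window, and a match in any of them was counted. A match describes letters and is not a binding site. The windows of 5 genes are printed 5′ to 3′ because these genes were called higher with the Cxxc5 hairpin in replicates 3 and 4 and represent the kinase, kinesin and mitotic exit groups; capitals mark CHR and CCAAT matches on either strand.
Cdk1, chr10:69352863-69353162, minus strand: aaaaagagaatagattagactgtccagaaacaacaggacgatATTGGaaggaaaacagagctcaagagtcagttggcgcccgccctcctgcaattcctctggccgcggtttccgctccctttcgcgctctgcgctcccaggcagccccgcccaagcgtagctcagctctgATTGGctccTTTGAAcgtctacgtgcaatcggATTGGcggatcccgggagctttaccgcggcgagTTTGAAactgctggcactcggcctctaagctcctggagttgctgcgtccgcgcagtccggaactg
Kif22, chr7:127042371-127042670, minus strand: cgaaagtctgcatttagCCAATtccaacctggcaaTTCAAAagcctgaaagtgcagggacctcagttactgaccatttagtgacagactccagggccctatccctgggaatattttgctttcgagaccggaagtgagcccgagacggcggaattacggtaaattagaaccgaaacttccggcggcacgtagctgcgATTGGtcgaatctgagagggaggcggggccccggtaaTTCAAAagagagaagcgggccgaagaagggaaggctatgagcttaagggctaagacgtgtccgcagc
Kif20b, chr19:34922108-34922407, plus strand: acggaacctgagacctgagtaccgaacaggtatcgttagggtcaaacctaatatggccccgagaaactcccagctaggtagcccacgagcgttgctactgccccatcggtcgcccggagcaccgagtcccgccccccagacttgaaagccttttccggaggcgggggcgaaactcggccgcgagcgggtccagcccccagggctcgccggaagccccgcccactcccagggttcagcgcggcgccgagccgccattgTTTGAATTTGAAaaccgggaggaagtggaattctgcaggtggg
Cdc20, chr4:118437294-118437593, minus strand: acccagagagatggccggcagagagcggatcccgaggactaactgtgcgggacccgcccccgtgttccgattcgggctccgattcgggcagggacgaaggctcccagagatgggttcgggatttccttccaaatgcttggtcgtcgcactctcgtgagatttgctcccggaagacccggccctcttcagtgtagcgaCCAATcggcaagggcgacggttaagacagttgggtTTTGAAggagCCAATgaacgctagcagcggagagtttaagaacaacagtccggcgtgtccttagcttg
Cdca3, chr6:124829926-124830225, plus strand: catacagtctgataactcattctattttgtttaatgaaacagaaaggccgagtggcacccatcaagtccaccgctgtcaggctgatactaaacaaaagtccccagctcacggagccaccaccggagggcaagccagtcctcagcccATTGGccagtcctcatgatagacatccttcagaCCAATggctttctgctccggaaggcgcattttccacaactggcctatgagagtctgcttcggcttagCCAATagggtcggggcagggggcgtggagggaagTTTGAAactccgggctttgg
The Cdk1 window holds 2 CHR matches and 3 CCAAT matches, and its CHR match nearest the start site begins 15 bases before it. In Kif22 and Cdc20 the CHR match nearest the start lies 17 and 18 bases upstream. Kif20b has 2 adjoining CHR matches just downstream of the start and no CCAAT match in this window. Cdca3 has 3 CCAAT matches and 1 CHR match, which lies 31 bases downstream of the start.

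Cxxc5 itself stood at 6.74, 17.4 and 17.9 CPM (read counts scaled to a common library size with edgeR's TMM factors) in shCxxc5 replicates 2, 3 and 4, against 82.2, 59.9 and 57.9 CPM in shCtrl replicates 2, 3 and 4. Total counts ran from 16558791 to 27754019 in shCxxc5 libraries and from 15002414 to 23285446 in shCtrl libraries. Replicate 2 of both groups stood apart from replicates 3 and 4. In replicate 2 the summed CPM of 12 interferon response genes was 369 in shCxxc5 cells and 417 in shCtrl cells, against 2623 to 2733 in the other 4 libraries. Ly6a, which encodes Sca-1, stood at 33.1 CPM in shCxxc5 replicate 2 and 46.4 CPM in shCtrl replicate 2, against 703 to 804 CPM in the others, while Kit lay between 82.4 and 110 CPM in all 6. The summed CPM of 16 megakaryocyte genes was 2580 in shCxxc5 replicate 2 and 9434 in shCtrl replicate 2, against 471 to 732 in the others. That of 15 granulocyte and monocyte genes was 6393 in shCxxc5 replicate 2 and 1240 in shCtrl replicate 2, against 1753 to 1900 in the others. Lymphoid genes summed to between 25.6 and 44.9 CPM, with Cd3e at 0 in every library. The part of these differences in the results below was not tested, and results are given with and without replicate 2.

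Levels per kilobase of exon ranged widely among the mitosis genes. Top2a, which encodes the topoisomerase that untangles chromosomes, was highest at 187 CPM per kb as the mean of the 6 libraries, followed by Ccnb2 at 110 (109.6), Cdc20 at 103 and Bub1b at 99.1 CPM per kb. Kif14 at 4.55, Foxm1 at 5.87 and Cdc25c at 6.10 CPM per kb were lowest. These levels are means over both hairpins and all replicates.

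Over all 6 libraries no mitosis gene passed the test between shCxxc5 and shCtrl cells. The edgeR quasi-likelihood test called 0 of 53 at a Benjamini-Hochberg adjusted p under 0.05, with 0.940 as the smallest adjusted p, against 0 of 14637 genes tested (0%). At an unadjusted p under 0.05 there was 1 mitosis gene, Kif20b, and 575 genes in all. DESeq2 and limma-voom called 0 of 53, where DESeq2 called 19 genes in all and limma-voom 0. The samples' correlations make a pairing by replicate number clear for number 2 only. With the replicate number as a block, edgeR called 0 of 53 (smallest adjusted p = 0.389) and DESeq2 0 of 53. They had 4 and 0 at an unadjusted p under 0.05. Over all 14637 genes the same 2 fits called 0 and 147, and had 1796 and 1082 at an unadjusted p under 0.05. The fitted log2 fold changes ran from -0.22 for Foxm1 to 0.27 for Ect2, with a median of 0.11 and 41 of 53 above 0, where the median over all genes tested was -0.02.

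The ratios within equally numbered libraries differed between the numbers. The median log2 ratio of shCxxc5 over shCtrl over the 53 genes was 0.19 in replicate 2, 0.05 in replicate 3 and 0.03 in replicate 4, where the medians over all genes tested were -0.04, -0.01 and -0.005. Of the 53 genes, 40, 33 and 29 were higher in the shCxxc5 library of the pair (75.5%, 62.3% and 54.7%), against 46.6%, 47.4% and 49.2% of all genes tested. The ratios spanned -0.42 to 1.18 in replicate 2, -0.11 to 0.27 in replicate 3 and -0.24 to 0.26 in replicate 4, so replicate 2 held the wide ones in both directions. In all 3 pairs, 22 of 53 (41.5%) were higher in shCxxc5 cells and 6 (11.3%) lower, where 19% and 22.4% of all genes tested did the same. For 12 of 53 genes (22.6%) every shCxxc5 library lay above every shCtrl library, and for 0 every one lay below, against 6.72% and 6.35% of all genes tested. These 12 were Aurka, Birc5, Mad2l1, Nuf2, Kif15, Kif20a, Kif20b, Kif22, Kif23, Smc2, Ncapg and Top2a. An exact two-sided permutation test of 3 against 3 libraries cannot give a p below 0.1, which each of these 12 reached. Without scaling beyond the library total the 3 medians were 0.22, 0.02 and 0.01. With library totals alone the groups also overlapped for Aurka, Birc5, Kif20a, Kif22, Smc2 and Top2a, so their separation depends on TMM scaling. The share over all genes under that scaling was not computed.

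**Figure D1:**
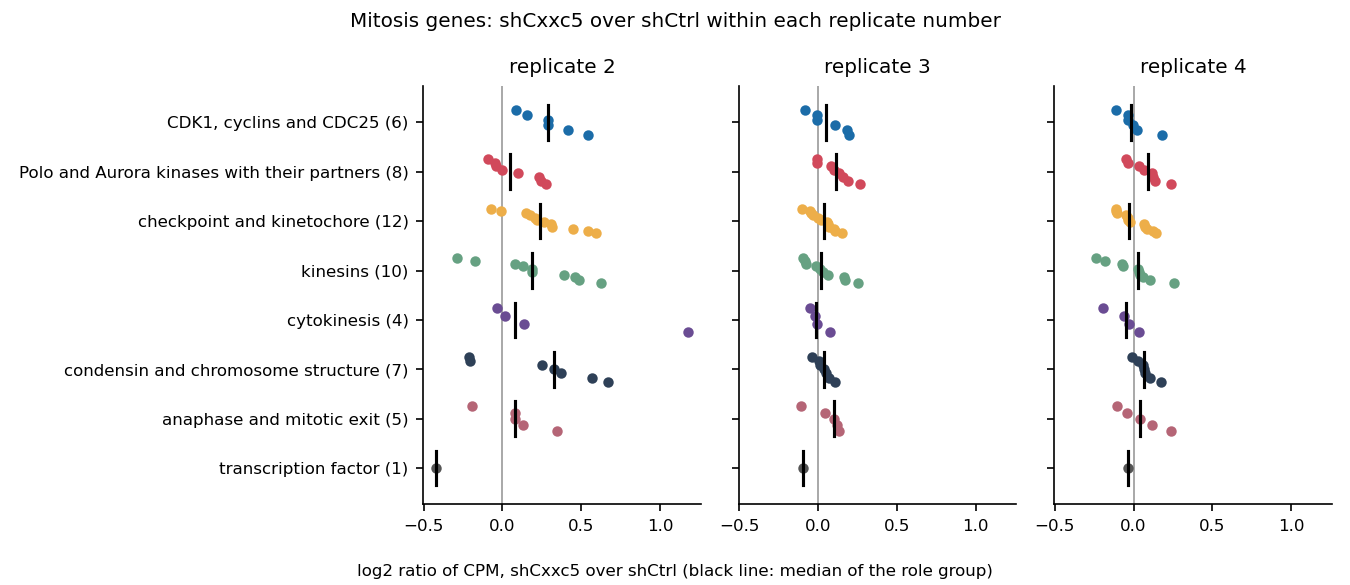
Each point is 1 mitosis gene, placed by its log2 ratio of CPM, shCxxc5 over shCtrl, within replicates 2, 3 and 4 (panels) and by role group (rows, with the number of genes); black lines are group medians. The points spread from -0.42 to 1.18 in replicate 2 and lie between -0.24 and 0.27 in replicates 3 and 4.

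For each role group, sets of 3 values run in the order of replicates 2, 3 and 4, and log2 fold changes are edgeR's over all 6 libraries, none of which passed the test.

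CDK1 and its regulators had a median log2 ratio of 0.29, 0.05 and -0.02 in the 3 pairs, with 2 of 6 genes higher in all pairs. Cdk1, the kinase that starts mitosis, stood at 291, 248 and 248 CPM in shCxxc5 cells, against 260, 219 and 219 CPM in shCtrl cells. It was higher by about the same ratio in each pair (0.16, 0.18 and 0.18), but replicate 2 lay above replicates 3 and 4 in both groups, so the groups overlapped (log2 fold change 0.17, SE 0.11). Ccna2, the cyclin of S and G2 phase, stood at 476, 359 and 347 CPM in shCxxc5 cells, against 356, 333 and 342 CPM in shCtrl cells, with a log2 fold change of 0.20 (SE 0.14). Ccnb1, which encodes cyclin B1, stood at 104, 71.8 and 70.6 CPM in shCxxc5 cells, against 71.5, 62.5 and 72.3 CPM in shCtrl cells, with a log2 fold change of 0.26 (SE 0.17). For both cyclins a single library, shCxxc5 replicate 2, stood above the other 5. Ccnb2, encoding cyclin B2, stood at 197, 157 and 165 CPM in shCxxc5 cells, against 161, 158 and 170 CPM in shCtrl cells (log2 fold change 0.09, SE 0.11). The phosphatase genes Cdc25b and Cdc25c had pair ratios of 0.09, -0.08 and -0.11, and of 0.29, -0.0079 and -0.0013.

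Among the Polo and Aurora kinases and their partners the median ratios were 0.05, 0.12 and 0.09, so here replicates 3 and 4 did not lie under replicate 2. Aurkb, the kinase that corrects wrong attachments, stood at 185, 154 and 146 CPM in shCxxc5 cells, against 157, 135 and 133 CPM in shCtrl cells (log2 fold change 0.19, SE 0.12). Birc5, encoding survivin, its partner in the chromosomal passenger complex, stood at 116, 97.5 and 106 CPM in shCxxc5 cells, against 95.7, 90.9 and 97.5 CPM in shCtrl cells (0.17, SE 0.09). Aurka, the spindle pole kinase, stood at 106, 105 and 102 CPM in shCxxc5 cells, against 98.9, 95.7 and 94.0 CPM in shCtrl cells (0.11, SE 0.07). All 3 were higher in shCxxc5 cells in every pair. The groups did not overlap for Aurka and Birc5, although for Birc5 the gap was under 1 CPM. Tpx2, which activates Aurora A on microtubules, stood at 293, 236 and 230 CPM in shCxxc5 cells, against 302, 237 and 238 CPM in shCtrl cells (-0.03, SE 0.15). Incenp, the scaffold of the passenger complex, differed between pairs: its ratio was -0.09 in replicate 2, 0.27 in replicate 3 and 0.24 in replicate 4. Plk1, the main Polo kinase, had ratios of -0.01, 0.16 and 0.04, Plk4, which starts centriole duplication, 0.24, 0.08 and 0.07, and Cdca8, encoding borealin, -0.04, -0.0035 and -0.03.

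The checkpoint and kinetochore genes had median ratios of 0.24, 0.04 and -0.03. Bub1b, which encodes the checkpoint protein BUBR1, stood at 468, 415 and 408 CPM in shCxxc5 cells, against 415, 415 and 422 CPM in shCtrl cells (log2 fold change 0.05, SE 0.09). Bub3, its binding partner, stood at 250, 226 and 226 CPM in shCxxc5 cells, against 226, 210 and 208 CPM in shCtrl cells (0.13, SE 0.09). Mad2l1, which encodes the checkpoint protein MAD2, stood at 112, 102 and 102 CPM in shCxxc5 cells, against 90.7, 91.7 and 97.1 CPM in shCtrl cells (0.18, SE 0.08, unadjusted p = 0.0632). Nuf2, a subunit of the NDC80 complex that grips microtubules, stood at 110, 94.3 and 93.04 CPM in shCxxc5 cells, against 80.3, 88.1 and 87.5 CPM in shCtrl cells (0.22, SE 0.10). The groups did not overlap for Mad2l1 and Nuf2, and overlapped by under 1 CPM for Bub3. In Nuf2 and Mad2l1 the shCtrl library of replicate 2 was the lowest of the 6. Bub1, the kinase that recruits other checkpoint proteins, and Spc25, another NDC80 complex subunit, had large ratios in replicate 2 alone, of 0.59 and 0.54, with -0.05 and -0.03 for Bub1 and 0.06 and -0.11 for Spc25 in replicates 3 and 4. Cenpe, a kinetochore motor gene, had ratios of -0.0086, -0.10 and -0.02, below 0 in all 3 pairs. Cenpf, another kinetochore gene, had ratios of -0.07, -0.05 and 0.14, so its largest ratio was the positive one of replicate 4.

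Of the 10 kinesins, 6 were higher in shCxxc5 cells in all 3 pairs and 2, Kif4 and Kif14, lower in all 3, with medians of 0.19, 0.02 and 0.03. Kif20b, a kinesin of the dividing cell's midzone, was the only mitosis gene with an unadjusted p under 0.05. It stood at 159, 148 and 142 CPM in shCxxc5 cells, against 116, 132 and 132 CPM in shCtrl cells, with a log2 fold change of 0.24 (SE 0.09, unadjusted p = 0.0378). The groups did not overlap, and its shCtrl replicate 2 was the lowest library. Kif11, the motor that pushes spindle poles apart, stood at 477, 364 and 358 CPM in shCxxc5 cells, against 364, 389 and 374 CPM in shCtrl cells (0.09, SE 0.13). Kif15, which can share that task, stood at 248.8, 225 and 222 CPM in shCxxc5 cells, against 178, 216 and 216 CPM in shCtrl cells (0.19, SE 0.11). Kif11 was thus higher in replicate 2 and lower in replicates 3 and 4, while Kif15 was higher in all 3 pairs, by 0.48, 0.06 and 0.04. Kif22, a chromosome-arm motor, stood at 127, 121 and 131 CPM in shCxxc5 cells, against 120, 108 and 110 CPM in shCtrl cells (0.17, SE 0.08). Its ratios of 0.08, 0.17 and 0.26 were larger in replicates 3 and 4 than in replicate 2. Kif18a, which dampens chromosome movement, had a ratio of 0.63 in replicate 2, -0.01 in replicate 3 and -0.24 in replicate 4. The lower pair were Kif4, a motor of chromosomes and the spindle midzone, at -0.17, -0.08 and -0.07, and Kif14, a motor of cytokinesis, at -0.28, -0.07 and -0.18.

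The 4 cytokinesis genes had median ratios of 0.08, -0.01 and -0.05, and none was on 1 side in all pairs. Ect2, which activates RhoA at the cleavage furrow, stood at 119, 119 and 115 CPM in shCxxc5 cells, against 52.5, 120 and 120 CPM in shCtrl cells. Its log2 fold change of 0.27 (SE 0.31) was the largest of the 53 and rested on 1 library, shCtrl replicate 2; without replicate 2 it was -0.03. Prc1, which bundles midzone microtubules, stood at 246, 193 and 187 CPM in shCxxc5 cells, against 224, 194 and 191 CPM in shCtrl cells (0.04, SE 0.14). Racgap1, Ect2's partner, stood at 164, 138 and 137 CPM in shCxxc5 cells, against 168, 131 and 133 CPM in shCtrl cells (0.02, SE 0.13). Replicate 2 was the highest library of each group for Prc1 and Racgap1. Anln, which scaffolds the contractile ring, stood at 156, 118 and 112 CPM in shCxxc5 cells, against 154, 122 and 128 CPM in shCtrl cells (-0.07, SE 0.16).

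Condensin and chromosome structure genes had median ratios of 0.33, 0.04 and 0.07. Top2a stood at 1840, 1714 and 1721 CPM in shCxxc5 cells, against 1464, 1698 and 1648 CPM in shCtrl cells (log2 fold change 0.13, SE 0.09). Smc4, a core condensin subunit, stood at 600 (599.6), 504 and 485 CPM in shCxxc5 cells, against 404, 491 and 451 CPM in shCtrl cells (0.24, SE 0.12). Smc2, its partner, stood at 378, 338 and 326 CPM in shCxxc5 cells, against 292, 322 and 319 CPM in shCtrl cells (0.16, SE 0.09). In all 3 the shCtrl library of replicate 2 was the lowest of the 6 and the shCxxc5 library of replicate 2 the highest. Ncapg, a condensin I subunit, had ratios of 0.67, 0.11 and 0.07, with groups that did not overlap. Mki67, which encodes the proliferation marker that coats mitotic chromosomes, ran otherwise. It stood at 780 (779.8), 579 and 601 CPM in shCxxc5 cells, against 902, 575 and 532 CPM in shCtrl cells (-0.04, SE 0.24).

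Genes of anaphase and mitotic exit had median ratios of 0.08, 0.10 and 0.04. Cdca3, a factor in the degradation of WEE1, stood at 108, 84.8 and 92.4 CPM in shCxxc5 cells, against 85.2, 79.0 and 78.3 CPM in shCtrl cells (log2 fold change 0.24, SE 0.11). Cdc20, the activator of the anaphase-promoting complex, stood at 239, 181.5 and 178 CPM in shCxxc5 cells, against 226, 167 and 164 CPM in shCtrl cells (0.10, SE 0.18). Both were higher in shCxxc5 cells in every pair, with replicate 2 highest in both groups. Espl1, encoding separase, stood at 127, 114 and 110 (109.6) CPM in shCxxc5 cells, against 145, 104 and 106 CPM in shCtrl cells (-0.02, SE 0.15). Ube2c, the complex's ubiquitin-conjugating enzyme, stood at 118, 84.5 and 84.1 CPM in shCxxc5 cells, against 108, 81.8 and 86.4 CPM in shCtrl cells (0.05, SE 0.18). Pttg1, encoding securin, the inhibitor of separase, had ratios of 0.08, -0.11 and -0.11. Foxm1, whose product activates many of the genes above, stood at 38.6, 27.8 and 27.0 CPM in shCxxc5 cells, against 51.8, 29.7 and 27.6 CPM in shCtrl cells. It was lower in shCxxc5 cells in every pair, by small ratios of -0.09 and -0.03 in replicates 3 and 4, and its log2 fold change of -0.22 (SE 0.29) did not pass the test.

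In replicates 3 and 4 alone, libraries of 1 group lay close together (edgeR's biological coefficient of variation 0.0294, against 0.312 over all 6 libraries). No label calls these libraries independent infections, so part of that spread may be technical, and the p-values cover it alone. Here 10 mitosis genes were higher in shCxxc5 cells and 0 lower. The rises were small, with log2 fold changes from 0.12 to 0.26. The same edgeR test called 20% of 14193 genes, 11% higher and 9% lower, so the 10 of 53 (18.9%) stand against a background of 11%, and the 0 against 9%. That background holds genes with few reads. Among genes of at least 1 CPM in at least 2 libraries it called 22.9% of 12742, 1567 of them higher. A background of genes with like read counts was not computed. The median log2 fold change over the 53 genes was 0.05, where that over all genes tested was -0.003. The calls held 1 gene of the CDK1 group (Cdk1), 3 of the Polo and Aurora group (Aurka, Aurkb and Incenp), 1 checkpoint gene (Bub3), 3 kinesins (Kif20a, Kif20b and Kif22) and 2 of anaphase and exit (Cdc20 and Cdca3). None was a cytokinesis or condensin gene, and Foxm1 was not called.

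Incenp rose most, to 152 and 143 CPM in shCxxc5 replicates 3 and 4, against 126 and 122 CPM in shCtrl replicates 3 and 4 (log2 fold change 0.26, SE 0.04, edgeR adjusted p = 6.52e-05). In replicate 2 its ratio was below 0, at -0.09, where the other genes called here had ratios above 0. Cdk1 rose by 0.19 (SE 0.04, edgeR adjusted p = 0.00046) and Kif22 by 0.22 (SE 0.05, edgeR adjusted p = 0.00112). Aurkb rose by 0.17 (SE 0.04, edgeR adjusted p = 0.00453), so 2 of the 4 passenger complex genes in the set rose while Birc5 and Cdca8 did not pass. Kif20a, the kinesin that carries the passenger complex to the midzone, stood at 193 and 175 CPM in shCxxc5 cells, against 162 and 171 CPM in shCtrl cells (0.16, SE 0.04, edgeR adjusted p = 0.0127). Its ratio was 0.25 within replicate 3 and 0.03 within replicate 4, a split that rests on a pairing the samples' correlations do not make clear. The other calls were Cdca3 (0.17, adjusted p = 0.0193), Kif20b (0.14, 0.0158), Aurka (0.13, 0.0469), Cdc20 (0.12, 0.0262) and Bub3 (0.12, 0.0233), all by edgeR.

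Incenp, Cdk1, Kif22 and Aurkb were also called by DESeq2. It called 4 of 53 (7.55%), all higher, and 1353 of 14193 genes (9.53%), 769 of them higher. The samples' correlations do not tell the pairing of numbers 3 and 4 from its reverse. With the replicate block edgeR called 12, adding Mad2l1 (0.12, adjusted p = 0.0434) and Mki67 (0.10, adjusted p = 0.0185). The 12 are 22.6% of the set and all were higher, where that fit called 3300 genes (23.3%), 1790 of them higher. The direction of the calls depends on scaling. With library totals alone 5 of 53 rose and 2, Kif11 (-0.10) and Anln (-0.14), fell. Of 14193 genes 1120 rose and 1606 fell (19.2% called), against 1555 and 1278 with TMM scaling. Leaving out 1 library gave fewer calls, both in the set and over all genes tested. The share called in the set was then near or under that over all genes. Each such fit sets 1 library against 2, so the spread comes from the other group alone and the lone library is assumed to vary like it. Exons of Kif20a, Kif22 and Cdc20 share 1271, 96 and 53 bases with genes on the opposite strand, and the sources used here do not give the strand setting of the counting.

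**Figure D2:**
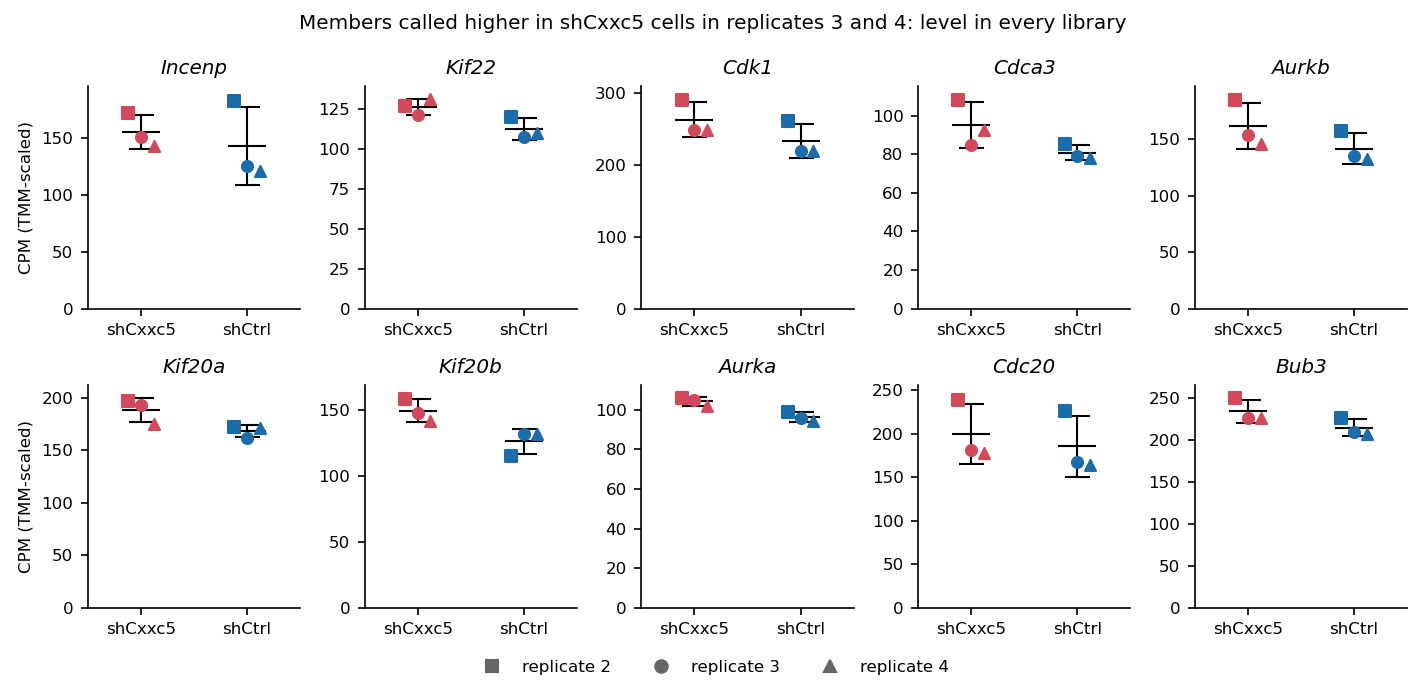
Level in CPM of the 10 mitosis genes called higher in shCxxc5 cells in replicates 3 and 4, in each of the 6 libraries, with marker shape for the replicate number and black bars for the mean and SD of each group (n = 3). Replicate 2 lies above replicates 3 and 4 of its own group for Incenp, Cdk1, Cdca3, Aurkb, Cdc20 and Bub3, and the groups overlap for these 6. It also does so for Aurka and Kif20a, whose groups do not overlap. In replicates 3 and 4 the shCxxc5 library of each pair is the higher one.

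Genes of mitosis outside the set moved in both directions. Of 99 such genes 98 were tested, and over all 6 libraries edgeR, DESeq2 and limma-voom each called 0. At an unadjusted p under 0.05 edgeR had 1, Fbxo5, and with the replicate block 11, where that fit had 1796 of 14637 genes. In replicates 3 and 4, 12 of 98 rose (12.2%) and 8 fell (8.16%), close to the backgrounds of 11% and 9%. With library totals alone 8 rose and 11 fell, and DESeq2 had 1 that rose and 5 that fell. Leaving out 1 library gave 4 to 7 that rose and 4 to 9 that fell, with 4 that rose without shCxxc5 replicate 4 or shCtrl replicate 3. Those that rose included Mybl2, which encodes B-MYB (0.23), the CDK1-inhibiting kinase gene Wee1 (0.19), Cdc25a (0.21), Fbxo5, an inhibitor of the anaphase-promoting complex (0.18), and Tacc3, a spindle protein gene (0.14). Those that fell included Plk2 (-0.51) and Plk3 (-0.70), stress-responsive Polo-like kinases, and Hjurp, the chaperone of the centromeric histone CENP-A (-0.29, edgeR adjusted p = 3.01e-07). In the same comparison 24 of 36 S phase genes rose (66.7%) and 0 fell. DESeq2 called 17 of them higher, and leaving out 1 library gave 14 (without shCtrl replicate 3) to 22, with 0 lower in each. Their summed CPM was 7839 and 7768 in shCxxc5 replicates 3 and 4, against 6988 and 7052 in shCtrl replicates 3 and 4, where that of the 53 mitosis genes was 9765 and 9666, against 9480 and 9372. Markers of blood lineages also differed in replicates 3 and 4, with 7 of 13 megakaryocyte genes lower (53.8%) and 0 higher, and 5 of 11 erythroid genes lower (45.5%) and 1 higher. The summed CPM of megakaryocyte genes was 471 and 477 in shCxxc5 cells, against 732 and 714 in shCtrl cells. That of erythroid genes was 629 and 596 in shCxxc5 cells, against 549.7 and 567 in shCtrl cells. Most of the erythroid sum was Tfrc, at 522 and 496 CPM in shCxxc5 cells, against 410 and 430 CPM in shCtrl cells. Tfrc was the erythroid gene called higher, and the only 1 of the 11 with a log2 fold change above 0. Of 15 granulocyte and monocyte genes 3 were higher and 4 lower, of 10 mast cell and basophil genes 3 and 3, of 10 LSK genes 2 and 2, of 12 interferon genes 1 and 3, and of 5 lymphoid genes 0 and 0. The part of the S phase and marker differences in the mitosis gene result was not tested.

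Between replicate 2 and replicates 3 and 4, with the hairpin as a covariate, 22 of 53 mitosis genes were higher in replicate 2 and 1 lower. This comparison crosses both hairpins, and edgeR called 36.9% of 15337 genes in it, 18.1% higher and 18.8% lower; the 22 are 41.5% of the set. What sets replicate 2 apart is not given by the labels. Foxm1 was furthest up (log2 fold change 0.66, SE 0.10, edgeR adjusted p = 0.0039), followed by Cdc25b (0.61, SE 0.07, edgeR adjusted p = 0.00172), Mki67 (0.54, SE 0.08), Kif14 (0.53, SE 0.08), Cenpe (0.43, SE 0.06) and Cdc20 (0.42, SE 0.05). Pttg1 was the gene that was lower: it stood at 69.8 CPM in shCxxc5 and 66.1 CPM in shCtrl cells of replicate 2, against 91.4 and 94.4 CPM in shCxxc5 and 98.5 and 102 CPM in shCtrl cells of replicates 3 and 4 (-0.52, SE 0.07, edgeR adjusted p = 0.00251). By role, replicate 2 was higher for 3 of 6 CDK1 group genes, 5 of 8 Polo and Aurora genes, 3 of 12 checkpoint and kinetochore genes, 2 of 10 kinesins, 3 of 4 cytokinesis genes, 2 of 7 condensin and chromosome genes, 3 of 5 anaphase and exit genes and Foxm1.

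S phase genes went the other way in this comparison, with 0 of 36 higher and 22 lower, while 31 of 98 other mitosis genes were higher and 5 lower. Leaving out 1 library gave 12 (without shCtrl replicate 3) to 30 S phase genes lower, with 3 higher without shCxxc5 replicate 2 and 0 otherwise. Markers moved with it too: 16 of 16 megakaryocyte genes and 12 of 13 erythroid genes were higher and 12 of 12 interferon genes lower in replicate 2, and their part in the mitosis gene result was not tested. Without scaling beyond the library total, 28 mitosis genes were higher and 1 lower, and over all genes 3398 were higher and 2154 lower, against 2777 and 2883 with TMM scaling. Leaving out either library of replicate 2 makes replicate 2 a single library. It then adds no spread and is assumed to vary like replicates 3 and 4. The biological coefficients of variation were 0.0294 without shCxxc5 replicate 2 and 0.0295 without shCtrl replicate 2, against 0.12 with both libraries. The direction depended on the library for some genes. Ect2, Ncapg, Bub1, Kif18a, Smc4, Kif15 and Top2a stood lower in shCtrl replicate 2 than in every library of replicates 3 and 4. In shCxxc5 replicate 2 they did not. For other mitosis genes, leaving out a library of replicate 3 or 4 gave 20 to 23 higher and 2 to 3 lower. Without shCxxc5 replicate 4 or shCtrl replicate 3 the test called 15 of 53 mitosis genes, 14 higher and 1 lower in each fit. Over all genes the fit without shCxxc5 replicate 4 called 25.5% of 15285, with 1969 higher and 1923 lower. The fit without shCtrl replicate 3 called 20.9% of 15230, with 1539 higher and 1644 lower.

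**Figure D3:**
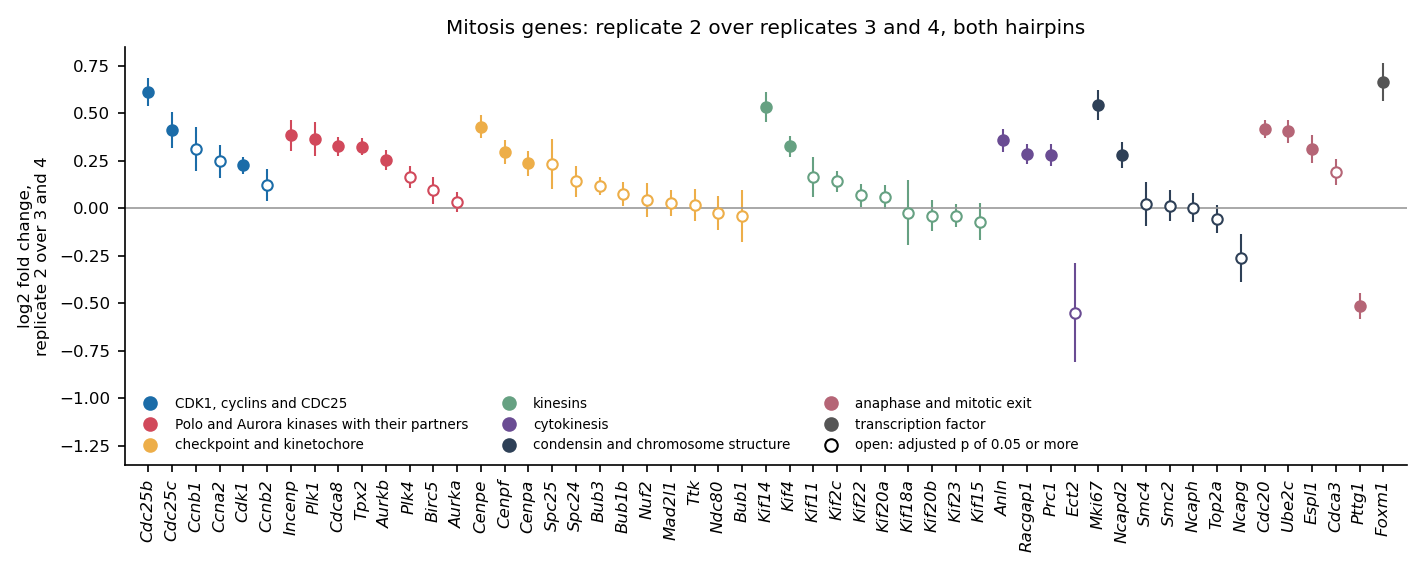
Log2 fold change of each mitosis gene, replicate 2 over replicates 3 and 4 of both hairpins, with bars for the SE; filled points passed an edgeR adjusted p of 0.05 and colours are role groups. Foxm1 is highest at 0.66, Pttg1 is the filled point below 0 at -0.52, and Ect2 at -0.55 has a wide SE and did not pass.

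In replicate 2 the hairpin ratio was larger for transcripts of lower GC content. The GC content of the 53 genes' transcripts ran from 34.8% to 56.1% (median 46.4%, against 49.5% over genes tested). Across the 53 genes, which share the same libraries, the log2 ratio and GC content correlated at Pearson's r = -0.633 (Spearman's rho = -0.645) in replicate 2, at 0.143 (0.144) in replicate 3 and at 0.181 (0.134) in replicate 4. Over 98 other mitosis genes r was -0.596, -0.144 and -0.125, and over 9757 genes with a mean log2 CPM of at least 3 it was -0.277, 0.002 and -0.024. The 17 genes of lowest GC, from 34.8% to 43.3%, had a median ratio of 0.45 in replicate 2 with 15 higher in shCxxc5 cells. The 19 genes next in GC had a median of 0.15 with 13 higher, and the 17 of highest GC, from 48.7%, had 0.10 with 12 higher. In replicate 3 these medians were 0.06, 0.01 and 0.06. Once each gene's ratio was set against genes of like GC, the 3 medians in replicate 2 were 0.28, 0.18 and 0.20, and the median over the 53 genes was 0.21. With counts corrected for GC, edgeR called 0 of 53 over all 6 libraries, and also 0 of all 14637 genes. In replicates 3 and 4 the corrected fit called 9 of 53, where it called 2911 of 14193 genes (20.5%), 1598 of them higher. The part of base composition in the single gene ratios was not tested.

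**Figure D4:**
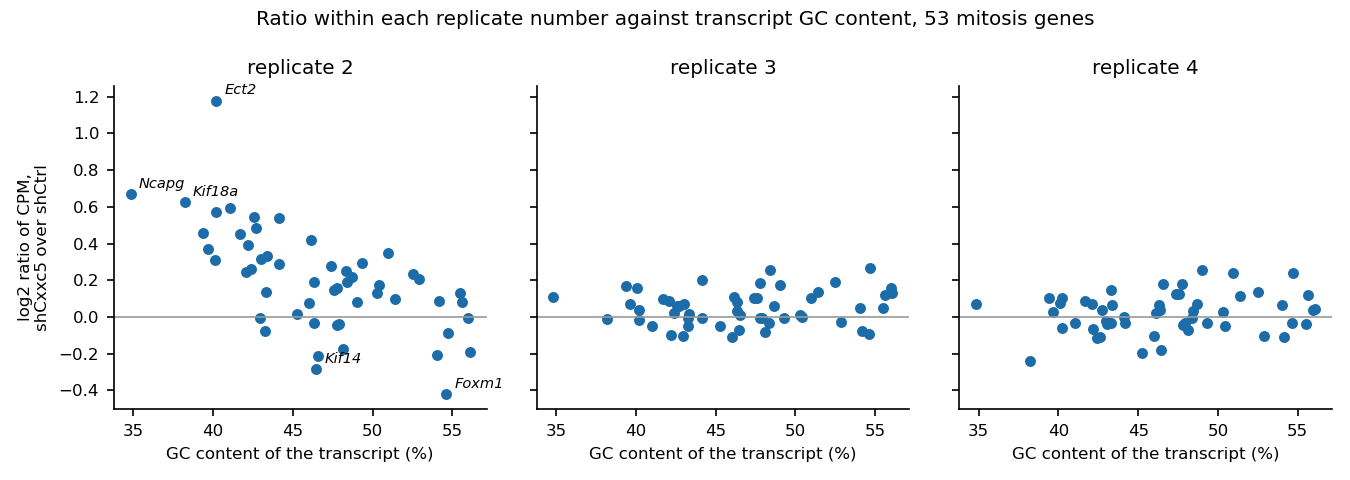
Log2 ratio of CPM, shCxxc5 over shCtrl, against the GC content of the transcript for the 53 mitosis genes, 1 panel per replicate number. In replicate 2 the ratios run downward with GC, with Ect2, Ncapg and Kif18a high at low GC and Foxm1 lowest at -0.42, while in replicates 3 and 4 they stay between -0.24 and 0.27 at every GC content.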

How the data were processed

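Messenger RNA of sorted LSK cells was sequenced in 6 libraries, 3 per hairpin. Raw read counts per gene were deposited by the authors as a table of 49671 Ensembl identifiers. Per the submitters' processing notes, STAR 2.5.2b, featureCounts 1.5.1 and DESeq2 were used with GRCm38 (mm10). Strand setting and annotation release: not given in the sources used here. Reads of genes that overlap on opposite strands can therefore not be told apart. Exons of 13 mitosis genes overlap a gene on the other strand and those of 3 one on the same strand. Symbols and exon lengths came from GENCODE M21 (GRCm38), which matched 49412 identifiers; the other 259 held 0.0557% of counts. The counts carry no molecular identifiers.

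Counts were tested with edgeR 4.0.16 in R 4.3.3 (TMM scaling, filterByExpr, robust quasi-likelihood test, Benjamini-Hochberg adjustment over all genes tested, threshold 0.05) on the group alone, in all 6 libraries (14637 genes), in replicates 3 and 4 (14193 genes), and for replicate 2 over replicates 3 and 4 with group as covariate (15337 genes). SE was taken from each log2 fold change's size over the square root of its F statistic. Pair ratios use log2 CPM with a prior count of 2. The code was tested on simulated counts. Replicate numbers occur in both groups, and deviations from the group means correlated at 0.67, 0.554 and 0.489 between equally numbered libraries 2, 3 and 4, so they were taken to pair the samples. Crossing numbers 3 and 4 gave 0.489 and 0.475, close to the values within a number, and the pairing is thus clear for number 2 only.

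Alternatives were DESeq2 1.42.0, limma-voom (limma 3.58.1), edgeR without robust fitting, other scalings, filters and prior counts, the replicate block, leaving out each library and, added after the data were seen, a correction for transcript GC content in 20 bins, alone and with the block, the block without scaling, and ratios centred on genes of like GC. In each role group the 2 genes of highest mean CPM and the 2 others of smallest unadjusted p over all 6 libraries are given with every library's value, or all of them in groups of 4 or fewer; other genes are given by single values or because a fit called them, and those picked out for their ratios were chosen after their values were seen. The genes, lists and comparisons were chosen with earlier results of these data known.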

Additional observations from a re-analysis of the deposited data

How the results depend on the processing

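The call of 0 mitosis genes over all 6 libraries held under each scaling, filter, tool, block and GC setting and without each single library. Every edgeR and limma-voom fit of these called 0 genes in all, so their 0 says nothing particular to the mitosis genes. Only DESeq2 called any, 19 of 14637 genes and, with the block, 147. In replicates 3 and 4 only, edgeR called 10 mitosis genes and 20 other mitosis genes, where it called 20% of 14193 genes. In replicates 3 and 4 DESeq2 called 4 mitosis genes, and leaving out 1 library gave 4 to 7; the comparison of replicate 2 gave 15 to 45. The replicate block, alone or in DESeq2, called 0 mitosis genes over all 6 libraries. By edgeR in replicates 3 and 4 it called 12 (22.6%), where it called 23.3% of all genes. Of 29 genes given with every library's value, 16 kept the sign of their log2 fold change over all 6 libraries in every setting. In replicates 3 and 4 only the sign turned for Ccnb2 (-0.014), Bub1b (-0.018), Kif11 (-0.077), Prc1 (-0.014), Ect2 (-0.033), Mki67 (0.10) and Espl1 (0.10). Prc1 was -0.0016 with the block and GC correction. Espl1 was 0.0066 with no filter, 0.0059 with GC correction and 0.0122 with the block and GC correction. Leaving out 1 library gave ranges across 0 for Ccnb2 (-0.011 to 0.16), Tpx2 (-0.15 to 0.093), Bub1b (-0.019 to 0.084), Kif11 (-0.059 to 0.16), Prc1 (-0.094 to 0.12), Anln (-0.23 to 0.040), Ect2 (-0.031 to 0.45), Racgap1 (-0.067 to 0.15), Mki67 (-0.18 to 0.24), Cdc20 (-0.046 to 0.27), Espl1 (-0.098 to 0.15), Ube2c (-0.12 to 0.18) and Foxm1 (-0.41 to 0.12). The cause of these changes was not tested. Each gene had at least 406 reads in each library. Fits that leave a group or replicate 2 with 1 library take its spread from the others.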
